A study of Mus musculus with 11 samples.

Results

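The imprinted genes described here are a list of 39 mouse genes that are known to be expressed mainly from 1 parental copy, 21 of them from the maternal and 18 from the paternal copy in at least some tissue or for some transcript. A gene was described where a probe under its symbol was detected (detection p-value under 0.01) on 2 or more of 11 arrays, and the probe with the highest mean signal stood for the gene. By this rule 23 of the 39 genes were followed, 13 of the 21 maternally and 10 of the 18 paternally expressed ones, among 9620 genes and unnamed probes tested in all. Ascl2 met this rule through 1 group alone, the EpiSC-GFP- arrays. The maternally expressed H19, Meg3, Rian and Copg2 and the paternally expressed Zrsr1 had no probe under their symbol and were not analysed here. A further 11 genes had probes of which none passed: Kcnq1, Zim1, Asb4 and Calcr among the maternally expressed ones, and Sgce, Plagl1, Magel2, Nap1l5, Usp29, Rasgrf1 and Mcts2 among the paternally expressed ones. Of these, Kcnq1, Magel2, Asb4 and Calcr reached detection on 1 array and the other 7 on 0. Just inside the rule stood Ascl2, detected on 2 arrays, and Peg10, detected on 6.

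The study profiled total RNA of male mouse pluripotent stem cell lines by hybridization to MouseRef-8 v2 BeadChips. There were 5 groups of 2 arrays and 1 group of a single array. Embryonic stem cells (group ESC, line and medium not given in the sources used here) are a culture related to the preimplantation epiblast. Epiblast stem cells are derived from the later epiblast. Group EpiSC is line GOF18, and group Epi-Sox2 is GOF18 overexpressing the transcription factor Sox2, grown in a medium the labels abbreviate CM. Groups EpiSC-GFP+ and EpiSC-GFP- are line E3 grown in CM and sorted by flow cytometry on an Oct4-GFP reporter into positive and negative cells. T9-EpiSC is line T9, kept on CF1 mouse embryonic fibroblast feeders in a medium abbreviated UM, without Fgf2 for 2 days and harvested without the feeders. Each group is thus 1 line or 1 sorted fraction of a line. The labels call the arrays of a group biological replicates without naming separate cultures, so the p-values measure the spread between these arrays and their number limits the precision. In bulk samples such as these, fewer cells of a type and less RNA per cell cannot be told apart.

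Array mean intensity before normalization lay between 199.7 and 371 in the EpiSC groups and T9-EpiSC, and at 622.5 and 594.8 on the ESC arrays. Between 9250 and 11675 of 25697 probes were detected on an array, and the replicate arrays of a group correlated at 0.988 to 0.996 across genes. Sox2 was 0.94 log2 units higher in Epi-Sox2 than in EpiSC (limma adjusted p = 0.00131). Of 8 markers of naive pluripotency 8 were lower in EpiSC than in ESC, where 26.2% of all genes were. Nr0b1 among them was detected on the ESC arrays alone, so its lower call follows from the detection rule. Of 7 tested markers of the primed epiblast 6 were higher, where 40.4% of all genes were, and 1 was lower. In Epi-Sox2 7 of the 8 naive markers were higher than in EpiSC (10.5% of all genes). As many were higher in EpiSC-GFP+ than in EpiSC-GFP- (13.4% of all genes). All levels below are log2 normalized signals of 1 probe on 1 array, and levels of different probes were not compared.

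Genomic imprinting is the expression of a gene from the copy of 1 parent. It rests on DNA methylation marks that the germ line sets at imprinting control regions and that the early embryo protects, among others through the zinc finger protein ZFP57, which binds a methylated TGCCGC hexamer. Imprinted genes act in fetal and placental growth, with many paternally expressed ones promoting and several maternally expressed ones restraining it, and imprints are known to be lost or altered in cultured pluripotent cells. The arrays read total RNA of both copies, so the parental class of a gene is background knowledge and was not measured here.

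Promoter windows give the sequence context of the genes with the widest differences. RefSeq windows of 300 bases, 250 before and 50 after a start (build GRCm38.p6), were found for 32 of the 39 listed genes and not for H19, Cdkn1c, Kcnq1, Peg10, Sgce, Impact and Nap1l4. The hexamer TGCCGC, or GCGGCA where it lies on the other strand, stood in a window of 13 of these 32 genes (40.6%), against 3527 of 27025 genes with a window in all (13.1%). By window the shares were 14 of 49 (28.6%) and 3813 of 32851 (11.6%). The imprinted genes' windows held a median of 17 CpG dinucleotides against 7 over all genes, and the hexamer itself holds a CpG; the part of CpG content in these shares was not tested. The windows shown are those of the genes whose means spanned 2 log2 units or more over the 5 replicated groups (Mest, Grb10, Igf2 and Nnat) and that of Ndn, which holds no match. Each was picked for holding a match where a gene has several windows: 1 of 3 windows of Mest, 1 of 2 of Grb10 and 3 of 4 of Igf2 hold none. The 4 windows of Gnas and the 1 of Phlda2, other genes of wide range, hold 0 matches. Of the genes followed on the arrays 6 of 19 with a window held the hexamer (31.6%), and of the listed genes that were not followed 7 of 13 (53.8%). They run 5′ to 3′ on the gene's strand, with matches in capitals: 2 in Mest at chr6:30737800-30738099 (+ strand), 1 each in Grb10 at chr11:12037371-12037670 (- strand), Igf2 at chr7:142661222-142661521 (- strand) and Nnat at chr2:157559828-157560127 (+ strand), and 0 in Ndn at chr7:62348027-62348326 (+ strand). A match is a run of letters, not a measured binding site.
Mest: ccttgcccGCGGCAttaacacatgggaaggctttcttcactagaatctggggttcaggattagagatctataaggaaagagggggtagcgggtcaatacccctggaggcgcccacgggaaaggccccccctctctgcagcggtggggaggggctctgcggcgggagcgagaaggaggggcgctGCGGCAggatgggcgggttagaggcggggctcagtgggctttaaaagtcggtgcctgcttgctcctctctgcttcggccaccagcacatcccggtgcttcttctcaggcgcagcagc
Grb10: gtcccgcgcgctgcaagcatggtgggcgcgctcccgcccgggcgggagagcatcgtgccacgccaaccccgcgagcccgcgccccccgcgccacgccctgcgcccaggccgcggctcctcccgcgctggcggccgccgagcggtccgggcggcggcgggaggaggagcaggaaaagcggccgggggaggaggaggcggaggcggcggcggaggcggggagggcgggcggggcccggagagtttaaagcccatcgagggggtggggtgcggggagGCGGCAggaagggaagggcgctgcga
Igf2: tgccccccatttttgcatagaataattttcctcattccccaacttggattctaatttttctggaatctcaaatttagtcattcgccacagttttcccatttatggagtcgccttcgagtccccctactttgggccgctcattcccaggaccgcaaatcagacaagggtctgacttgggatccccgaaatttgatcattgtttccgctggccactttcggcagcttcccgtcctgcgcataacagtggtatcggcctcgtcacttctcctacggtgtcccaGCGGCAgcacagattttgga
Nnat: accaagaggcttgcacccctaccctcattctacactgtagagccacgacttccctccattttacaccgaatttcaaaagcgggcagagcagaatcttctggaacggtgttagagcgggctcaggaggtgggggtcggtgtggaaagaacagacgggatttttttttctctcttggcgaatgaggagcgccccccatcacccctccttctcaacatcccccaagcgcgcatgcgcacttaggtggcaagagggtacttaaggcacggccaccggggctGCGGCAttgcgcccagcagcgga
Ndn: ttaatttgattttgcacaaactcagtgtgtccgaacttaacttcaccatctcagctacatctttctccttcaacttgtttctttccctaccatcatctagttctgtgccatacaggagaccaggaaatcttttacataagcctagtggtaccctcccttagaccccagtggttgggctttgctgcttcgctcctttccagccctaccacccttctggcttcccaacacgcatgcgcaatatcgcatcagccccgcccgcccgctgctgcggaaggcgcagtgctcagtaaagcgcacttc

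Nearly all of the imprinted genes differed somewhere among the 5 groups with 2 arrays. By limma's moderated F test 22 of the 23 passed an adjusted p of 0.05, close to the 85.5% of all genes that did. The exception was Mkrn3, which encodes a zinc finger ubiquitin ligase (adjusted p = 0.157). The group means of the imprinted genes spanned a median of 1.46 log2 units over the 6 groups against 1.26 over all genes. In 8 of the 23 the span was 2 units or more, against 20.7% of all genes. These 8 were Cdkn1c, Gnas, Grb10 and Phlda2 of the maternally and Igf2, Mest, Ndn and Nnat of the paternally expressed genes. Over the 5 replicated groups alone 4 genes reached that span (Grb10, Igf2, Mest and Nnat), against 16.5% of all genes. For Cdkn1c, Gnas, Ndn and Phlda2 it was thus reached through the single T9-EpiSC array.

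**Figure D1:**
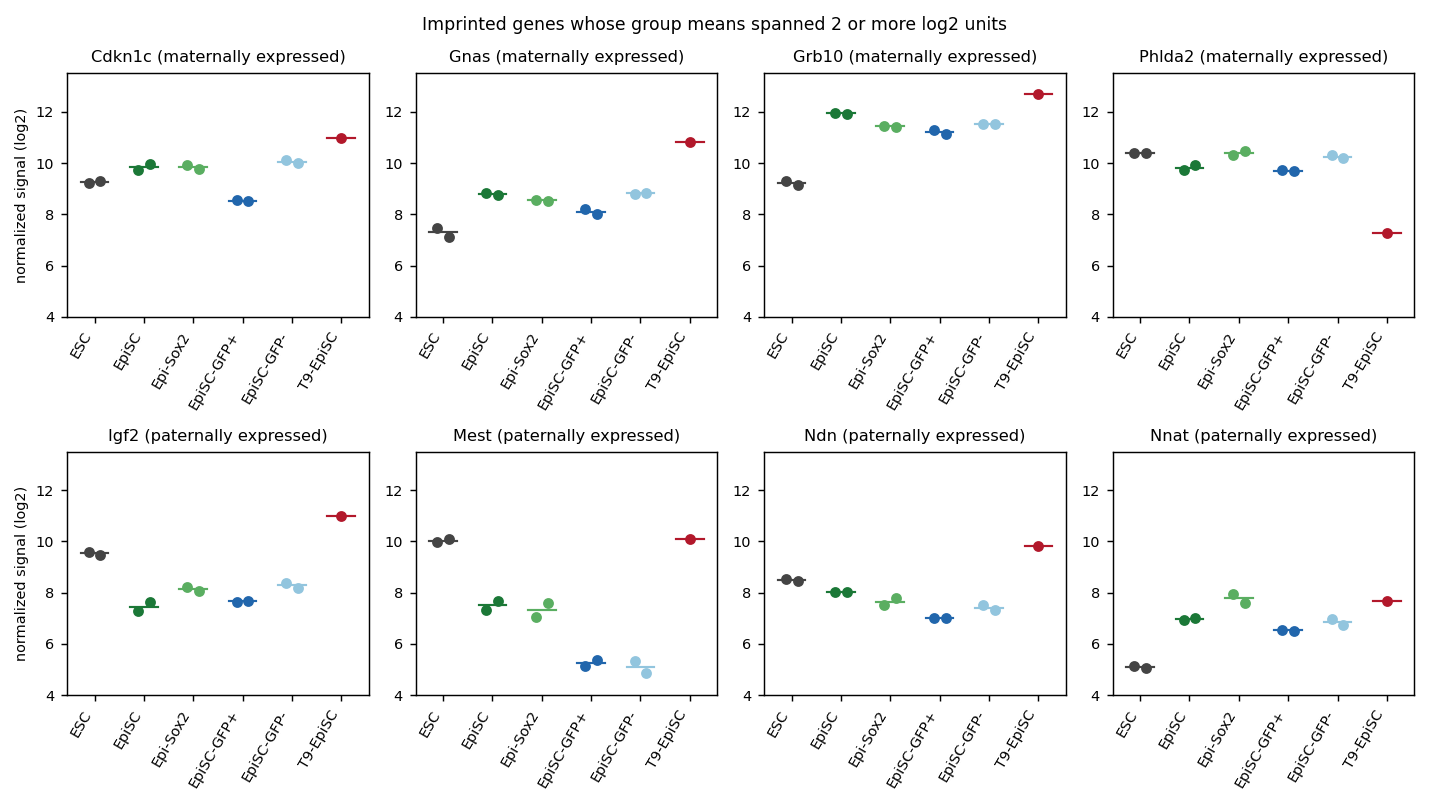
Normalized signal (log2) of the 8 imprinted genes whose group means spanned 2 or more log2 units, by group. Each point is 1 array and each horizontal bar the group mean; Mest ranges from 4.88 on an EpiSC-GFP- array to 10.10 on the T9-EpiSC array, and Phlda2 is lowest on the T9-EpiSC array at 7.27.

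Mest, a paternally expressed gene for a hydrolase-like protein of the early mesoderm, had the widest range. Its level was 9.96 and 10.09 on the ESC arrays, 7.34 and 7.66 in EpiSC, 7.06 and 7.58 in Epi-Sox2, 5.16 and 5.36 in EpiSC-GFP+, 5.34 and 4.88 in EpiSC-GFP- and 10.10 in T9-EpiSC. The ESC and T9-EpiSC arrays were high, the GOF18 arrays were intermediate and the 4 E3 arrays were lowest, with 1 of these not detected. Neither the 2 GOF18 groups nor the 2 E3 fractions separated from each other. Igf2, the paternally expressed fetal growth factor, stood at 9.59 and 9.47 in ESC, 7.28 and 7.63 in EpiSC, 8.21 and 8.07 in Epi-Sox2, 7.64 and 7.67 in EpiSC-GFP+, 8.36 and 8.20 in EpiSC-GFP- and 10.97 in T9-EpiSC. It too was high in ESC and higher still on the T9-EpiSC array, while the other EpiSC arrays did not reach the ESC level.

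Ndn encodes necdin, a growth suppressor of the MAGE family that lies in the Snrpn cluster. Its level was 8.52 and 8.44 in ESC, 8.03 and 8.01 in EpiSC, 7.51 and 7.79 in Epi-Sox2, 7.02 and 7.01 in EpiSC-GFP+, 7.52 and 7.32 in EpiSC-GFP- and 9.80 in T9-EpiSC. By group means the order of ESC above both GOF18 groups above both E3 fractions was that of Mest, over a smaller range. Nnat, which encodes the membrane proteolipid neuronatin, ran otherwise, with levels of 5.14 and 5.05 in ESC, 6.95 and 7.03 in EpiSC, 7.96 and 7.61 in Epi-Sox2, 6.56 and 6.49 in EpiSC-GFP+, 6.98 and 6.73 in EpiSC-GFP- and 7.67 in T9-EpiSC. The ESC arrays were lowest for Nnat and the Epi-Sox2 arrays high.

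Among the maternally expressed genes, Grb10, an adaptor that dampens insulin and IGF receptor signalling, stood at 9.30 and 9.16 in ESC, 11.96 and 11.93 in EpiSC, 11.44 and 11.42 in Epi-Sox2, 11.30 and 11.15 in EpiSC-GFP+, 11.52 and 11.52 in EpiSC-GFP- and 12.69 in T9-EpiSC. No EpiSC array came within 1 log2 unit of an ESC array. Gnas encodes the stimulatory G protein alpha subunit, and its locus also makes transcripts of other parental origin. Its probe read 7.48 and 7.13 in ESC, 8.83 and 8.77 in EpiSC, 8.57 and 8.52 in Epi-Sox2, 8.19 and 8.0 in EpiSC-GFP+, 8.78 and 8.85 in EpiSC-GFP- and 10.82 in T9-EpiSC. As with Grb10, the ESC arrays were the lowest and the T9-EpiSC array the highest.

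Cdkn1c and Phlda2 are neighbours in the Kcnq1 cluster. Cdkn1c, the cyclin-dependent kinase inhibitor p57, read 9.21 and 9.29 in ESC, 9.74 and 9.97 in EpiSC, 9.94 and 9.77 in Epi-Sox2, 8.55 and 8.51 in EpiSC-GFP+, 10.10 and 9.99 in EpiSC-GFP- and 10.96 in T9-EpiSC. Its lowest arrays were those of the GFP-positive fraction, below ESC. Phlda2, which restrains placental growth, read 10.39 and 10.41 in ESC, 9.72 and 9.92 in EpiSC, 10.32 and 10.47 in Epi-Sox2, 9.71 and 9.67 in EpiSC-GFP+, 10.30 and 10.20 in EpiSC-GFP- and 7.27 in T9-EpiSC. All arrays but the last lay within 1 log2 unit of each other.

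**Figure D2:**
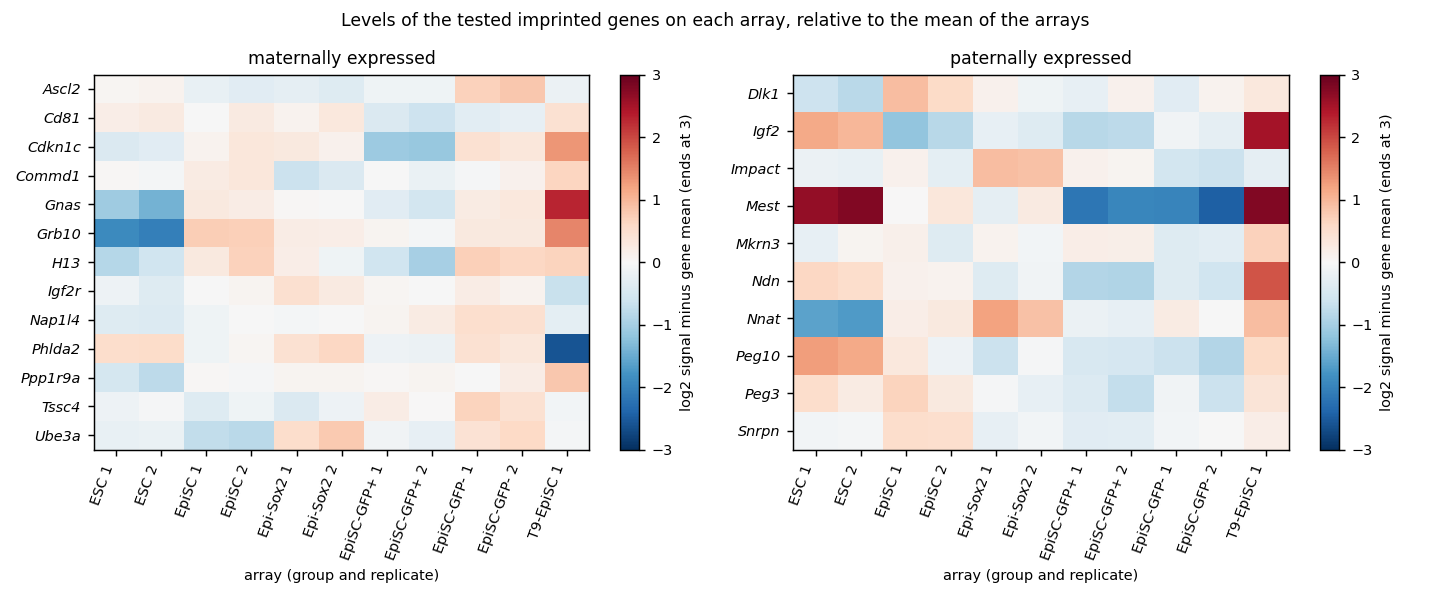
Levels of the 23 imprinted genes on the 11 arrays as the log2 signal minus the gene's mean over the arrays (colour scale, ending at 3 units either way), maternally expressed genes on the left and paternally expressed on the right. Columns are arrays and lines are genes; Mest, Igf2, Peg10 and Ndn are high in ESC, Grb10, Gnas and Nnat are low there, and the T9-EpiSC column holds the highest level of 10 genes.

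The comparison of EpiSC with ESC sets 1 primed line, GOF18, against 1 group of naive cells. Pluripotent state, line and culture conditions thus cannot be told apart in it. The paternally expressed Mest, Igf2 and Peg10 were lower in EpiSC, while the maternally expressed Grb10, Gnas and H13 and the paternally expressed Nnat and Dlk1 were higher. With limma, 16 of the 23 genes passed, 9 higher and 7 lower, where 66.6% of all genes passed (40.4% higher and 26.2% lower), so the members' count is near the background. The maternally expressed genes held 6 higher and 3 lower of 13, and the paternally expressed ones 3 higher and 4 lower of 10. By 1 log2 unit or more 5 genes were higher and 3 lower, against 17.5% and 14.8% of all genes. The median difference was 0.12 over the imprinted genes and 0.22 over all genes. The arrays of both groups did not overlap for 18 of the 23, against 82.9% of all genes.

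Grb10 was higher in EpiSC by 2.71 ± 0.12 log2 units (SE, 2 arrays a group, 6.56-fold, limma adjusted p = 7.9e-08). Nnat was 1.89 ± 0.15 higher (adjusted p = 2.84e-06), and Gnas was 1.49 ± 0.14 higher (adjusted p = 1.04e-05). For each of these the EpiSC and ESC arrays were far apart relative to the spread within a group. Dlk1, a membrane protein of the Notch ligand family, stood at 5.37 and 5.19 in ESC and at 6.92 and 6.57 in EpiSC, a rise of 1.46 ± 0.20 (adjusted p = 0.000124). H13, which encodes signal peptide peptidase, stood at 6.57 and 6.82 in ESC and at 7.72 and 8.11 in EpiSC, 1.22 ± 0.19 higher (adjusted p = 0.000292). In both genes the EpiSC arrays lay above both ESC arrays.

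Mest fell by 2.53 ± 0.21 log2 units from ESC to EpiSC (5.77-fold, limma adjusted p = 4.25e-06), and Igf2 was lower by 4.21-fold, a log2 difference of -2.07 ± 0.14 (adjusted p = 1.31e-06). Peg10, derived from a retrotransposon and needed in the placenta, read 6.53 and 6.42 in ESC against 5.59 and 5.13 in EpiSC, a difference of -1.12 ± 0.21 (adjusted p = 0.00111). In all of these genes the groups were separate. Smaller rises passed for Ppp1r9a (0.65), Cdkn1c (0.61), Snrpn (0.59) and Nap1l4 (0.33). Smaller decreases passed for Phlda2 (-0.58), the Ube3a probe used (-0.56) and Ndn (-0.46). The remaining call among the 7 was Ascl2, which was not detected on any of these 4 arrays, and no difference is given for it. Peg3, a zinc finger protein gene, did not pass (0.09, 95% interval -0.39 to 0.57), nor did the IGF2 clearance receptor gene Igf2r (0.30, -0.02 to 0.61).

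The ESC comparison depends on how arrays are scaled. The median of all genes was 0.22 as given, 0.01 with cyclic loess and -0.13 with median scaling, and the imprinted genes' split of 9 higher and 7 lower became 5 and 8, and 5 and 9. The rises of Grb10, Nnat, Gnas, Dlk1 and H13 and the decreases of Mest, Igf2, Peg10 and Phlda2 passed in every alternative and with every array left out. Of 12 embryonic fibroblast markers 5 were tested, 2 of which (Lox and Col3a1) were detected on the ESC arrays alone and so were tested because of them. The summed signal of the 5 was 441 and 476 in ESC and 183 and 206 in EpiSC. Of the other 3 markers Col1a1 was higher in ESC. Dcn was higher too, but it was detected on the ESC arrays and T9-EpiSC alone. It thus met the detection rule only through the ESC arrays. The part of fibroblasts in the levels of Mest and Igf2 was not tested.

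**Figure D3:**
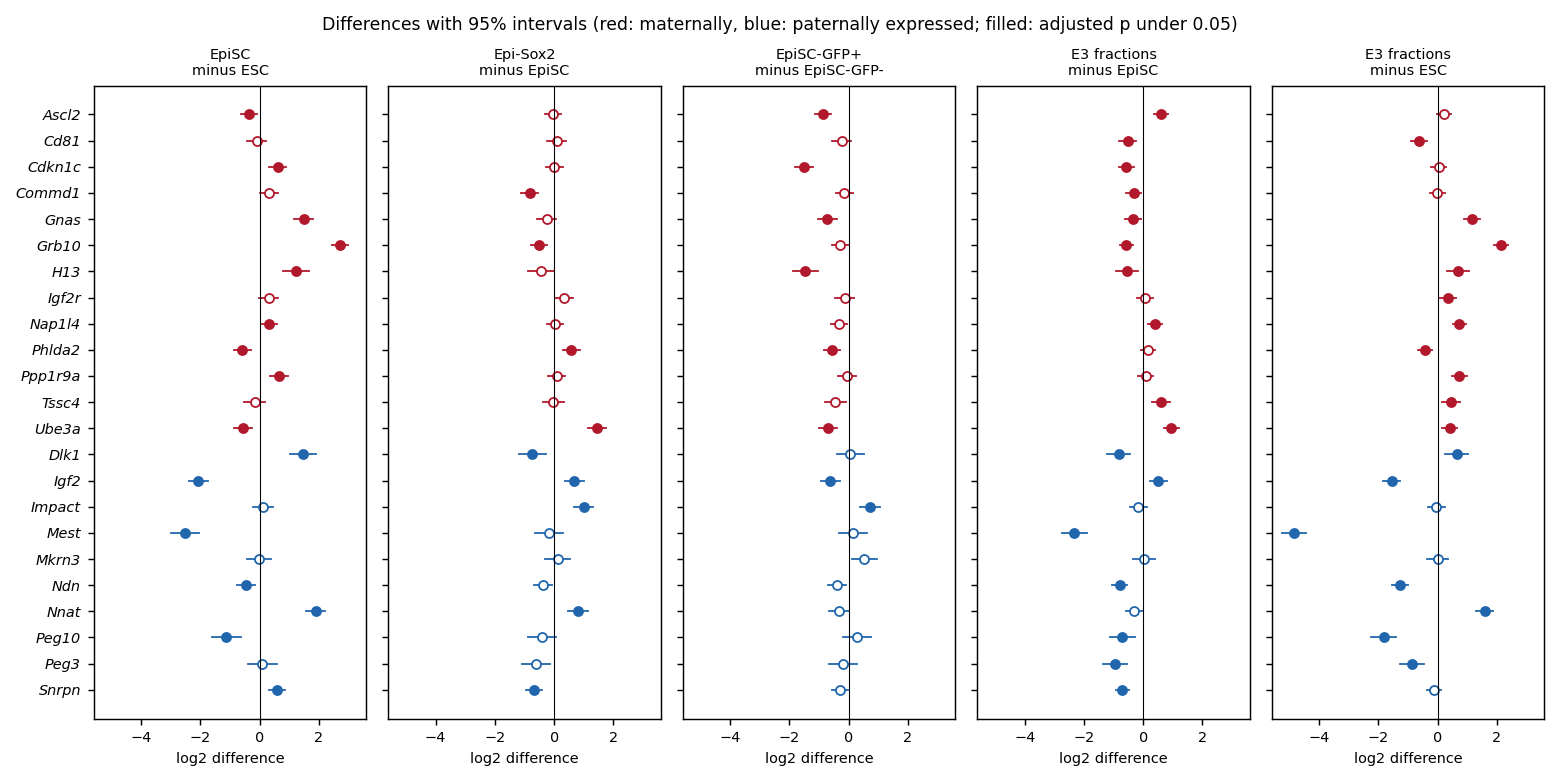
Log2 differences of the 23 imprinted genes in 5 comparisons, with 95% intervals from limma; red marks maternally and blue paternally expressed genes, and filled points passed an adjusted p of 0.05. The Mest probe used stands farthest to the left where E3 or EpiSC is set against ESC (-4.85 and -2.53), and Grb10 farthest to the right (2.14 and 2.71).

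The comparison of Epi-Sox2 with EpiSC asks what overexpressed Sox2 in the GOF18 line goes with. The paternally expressed Impact, Nnat and Igf2 and the maternally expressed Phlda2 were higher, while Commd1, Dlk1, Snrpn and Grb10 were lower. In all 9 of the 23 genes passed, 5 higher and 4 lower, against 19.9% of all genes (10.5% higher and 9.4% lower). The 5 include Ube3a, for which no direction is given below. Where all detected probes of a gene had to be called the same way, 8 passed, 4 higher and 4 lower. Of the maternally expressed genes 2 were higher and 2 lower, and of the paternally expressed ones 3 and 2. The median difference was -0.03 against -0.01 over all genes, and groups did not overlap for 15 of the 23 against 58.4%. Past 1 log2 unit stood 1 gene, Ube3a (2.39% of all genes were called and that much higher), and 0 genes lower (0.759%).

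Impact, an inhibitor of the GCN2 stress kinase pathway, read 10.94 and 10.91 in Epi-Sox2 against 10.15 and 9.73 in EpiSC, 0.99 ± 0.15 higher (SE, limma adjusted p = 0.00217). The Epi-Sox2 arrays were the highest of all 11 for this gene. Commd1, a regulator of copper handling and NF-kappa B, was lower by 0.83 (adjusted p = 0.00297, a log2 difference of -0.83 ± 0.13), and Snrpn, the spliceosomal SmN protein gene, differed by -0.68 ± 0.12 (adjusted p = 0.00403). Both Epi-Sox2 arrays lay below both EpiSC arrays for each. These 3 calls passed in every alternative and with every array left out, while the count fell from 9 to 5 without Epi-Sox2 replicate 1. Nnat (0.80), Igf2 (0.68) and Phlda2 (0.58) were higher and Dlk1 (-0.74) and Grb10 (-0.52) lower, each with limma adjusted p-values between 0.00637 and 0.0299. Mest did not pass (-0.18, 95% interval -0.65 to 0.29).

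Ube3a encodes a ubiquitin ligase that is maternally expressed in neurons. The probe with the higher mean over all arrays read 4.90 and 4.84 in EpiSC, the second of these not detected, and 6.18 and 6.44 in Epi-Sox2, 1.44 ± 0.13 higher (limma adjusted p = 0.000146). The other Ube3a probe was detected on the ESC arrays (7.90 and 7.99), the EpiSC arrays (5.66 and 5.02) and the T9-EpiSC array (5.83), and on no Epi-Sox2 or E3 array. The probe used was thus highest in Epi-Sox2, where the other was not above background. From ESC to EpiSC both were lower, by log2 differences of -0.56 and -2.61. No direction is given for Ube3a as a gene for that reason.

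The 2 fractions of E3 compare cells with and without activity of the Oct4-GFP reporter, sorted from line E3. The maternally expressed Cdkn1c and H13 were lower in GFP-positive cells by more than 1 log2 unit. In all 8 of the 23 genes passed, 1 higher and 7 lower, against 26.7% of all genes (13.4% higher and 13.2% lower). Of the 13 maternally expressed genes 0 were higher and 6 lower, and of the 10 paternally expressed ones 1 was higher and 1 lower. The median difference was -0.29 against -0.01 over all genes, and arrays did not overlap for 18 of the 23 against 64.7%. Lower by 1 unit or more were 2 genes, against 1.95% of all genes, and higher by as much were 0, against 3.73%.

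With the levels given above, Cdkn1c was lower in EpiSC-GFP+ by 2.85-fold, a log2 difference of -1.51 ± 0.13 (SE, 2 arrays a group, limma adjusted p = 6.84e-05). H13 read 6.83 and 6.44 in EpiSC-GFP+ and 8.15 and 8.05 in EpiSC-GFP-, a difference of -1.46 ± 0.19 (adjusted p = 0.000769). Its other probes gave -1.44 (adjusted p = 0.00272) and -0.57 (adjusted p = 0.119), so 2 of 3 passed. Ascl2, a transcription factor of the trophoblast lineage, was detected on both EpiSC-GFP- arrays (5.37 and 5.49) and on no other array of the study. It passed the detection rule through this group alone, so that its call among the 7 lower genes follows from the rule and no test is given for it. Without Ascl2, 6 of 22 genes were lower, 5 of them among 12 maternally expressed ones.

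Gnas (-0.72), the Ube3a probe used (-0.69), Igf2 (-0.63) and Phlda2 (-0.56) were also lower in GFP-positive cells. The exception in direction was Impact, 10.15 and 10.11 in EpiSC-GFP+ against 9.46 and 9.37 in EpiSC-GFP-, which was 0.72 ± 0.15 higher (limma adjusted p = 0.0076). Mest (0.15, 95% interval -0.32 to 0.62) and Grb10 (-0.29, -0.56 to -0.03, adjusted p = 0.0939) did not pass. The count depended on the processing, with 14 calls at an offset of 50, 13 without background correction, 13 with an intensity trend, and 4 with median scaling, split 2 and 2, where the median of all genes was 0.23. The calls of Cdkn1c and Impact passed in every alternative and with every array left out, and fewer probes were detected on the EpiSC-GFP- arrays (9250 and 9571) than on the EpiSC-GFP+ arrays (10270 and 10315).

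The mean of both E3 fractions against EpiSC compares 1 EpiSC line with another. Line and sorting cannot be told apart, since GOF18 was not sorted and E3 was only measured sorted. Naive markers differed as well, with 7 of 8 higher in E3 than in EpiSC (18.9% of all genes). Between the fractions 7 of the 8 were higher in EpiSC-GFP+. Line and pluripotent state thus cannot be told apart either. The paternally expressed Mest, Peg3, Dlk1, Ndn, Snrpn and Peg10 and the maternally expressed Grb10 and Cdkn1c were among those lower in E3. In all 17 of the 23 genes passed, 5 higher and 12 lower, against 40.3% of all genes (18.9% higher and 21.3% lower). Where all detected probes of a gene had to be called the same way, 12 passed, 4 higher and 8 lower. Of the 10 paternally expressed genes 1 was higher and 6 were lower, and of the 13 maternally expressed ones 4 and 6. The median difference was -0.71 over the paternally and 0.06 over the maternally expressed genes, against -0.02 over all genes. Of the 23, 14 had arrays that did not overlap (41.1% of all genes). A decrease of 1 unit or more was called for 1 gene, Mest, against 4.47% of all genes, and a rise of that size for 0, against 2.63%.

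The Mest probe used differed by -2.32 ± 0.18 log2 units (SE, 4 against 2 arrays, 4.98-fold lower in E3, limma adjusted p = 2.7e-05). Its E3 levels lay near the dimmest detected signals of these arrays (5.05 to 5.38), and 1 of the 4 was not detected. The other Mest probes gave -1.47 and -1.29, so the size depends on the probe. Peg3 read 5.69 and 5.37 in EpiSC-GFP+, 5.98 and 5.45 in EpiSC-GFP- and 6.76 and 6.39 in EpiSC, a difference of -0.95 ± 0.19 (adjusted p = 0.00307). Ndn differed by -0.80 ± 0.12 (adjusted p = 0.000629), and for Mest, Peg3 and Ndn every E3 array lay below both EpiSC arrays. Dlk1 (-0.82) and Snrpn (-0.71) were lower as well, and Peg10, detected on 0 of 4 E3 arrays, was at least 1.12-fold lower. For this bound the detected mean was set against a floor, which on each array was the dimmest signal that counted as detected or the signal of Peg10 itself, whichever was larger. The second detected probe of Snrpn gave 0.30 (adjusted p = 0.0903 over all probes), so its decrease rests on the brighter probe.

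Of the maternally expressed genes, Grb10 (-0.57), Cdkn1c (-0.57), H13 (-0.55), Cd81 (-0.53), Gnas (-0.35) and Commd1 (-0.32) were lower in E3, and Tssc4 (0.60) and Nap1l4 (0.39) were higher, as was the Ube3a probe used. Gnas and Commd1 passed narrowly (limma adjusted p = 0.0493 and 0.049): the call of Gnas was lost in 4 of 11 alternatives and with 8 of 11 arrays left out in turn, and that of Commd1 in 5 and with 9. The fourth higher call, Ascl2, was detected on 2 of the 4 E3 arrays, through which it passed the detection rule, and on 0 EpiSC arrays, and no difference is given for it. For Cdkn1c, Gnas and H13 the E3 arrays overlapped the EpiSC arrays, since these genes also differed between the fractions. Igf2 was the 1 paternally expressed gene that was higher (0.51, limma adjusted p = 0.01). Mest, Peg3, Ndn, Grb10 and Cdkn1c passed in every alternative and with every array left out. The count of 17 fell to 10 without EpiSC replicate 1, and with median scaling, which moved the median of all genes to -0.29, the split became 1 higher and 14 lower.

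Against ESC, the E3 fractions again had Mest, Igf2, Ndn and Peg10 lower and Grb10, Nnat and Gnas higher. These comparisons share the E3 arrays with the one before and the ESC arrays with the first. Of the 23 genes 17 passed, 10 higher and 7 lower, against 73.9% of all genes (44.4% higher and 29.5% lower). By 1 unit or more 3 were higher and 4 lower, against 20.9% and 17.2%. The median difference was 0.40 over the maternally and -0.49 over the paternally expressed genes, against 0.25 over all genes.

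The Mest probe used differed by -4.85 ± 0.18 log2 units (SE, 4 against 2 arrays, limma adjusted p = 1.33e-08), and its 2 other detected probes by -2.87 and -2.44 (adjusted p = 5.09e-07 and 2.36e-05 over all probes). The size thus depends on the probe, and the probe used was not detected on 1 of the 4 E3 arrays. Igf2 differed by -1.56 ± 0.13 (adjusted p = 1.84e-06) and Ndn by -1.26 ± 0.12 (adjusted p = 5.1e-06). Peg10, detected on 0 of 4 E3 arrays, was at least 2.44-fold lower. Its limma adjusted p (9.5e-06) belongs to the fitted difference and does not test this bound. Grb10 was 2.14 ± 0.10 higher (adjusted p = 5.27e-08), Nnat 1.59 ± 0.13 (adjusted p = 1.97e-06) and Gnas 1.15 ± 0.12 (adjusted p = 1.48e-05). All of these genes had E3 and ESC arrays that did not overlap, as had 15 of the 23, against 73.3% of all genes. Side by side, Grb10 was 2.71 higher in EpiSC and 2.14 higher in E3 than in ESC. With median scaling, under which the median of all genes was -0.41, the rise of Gnas did not pass and the split was 2 higher and 13 lower; with cyclic loess it was 6 and 11.

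**Figure D4:**
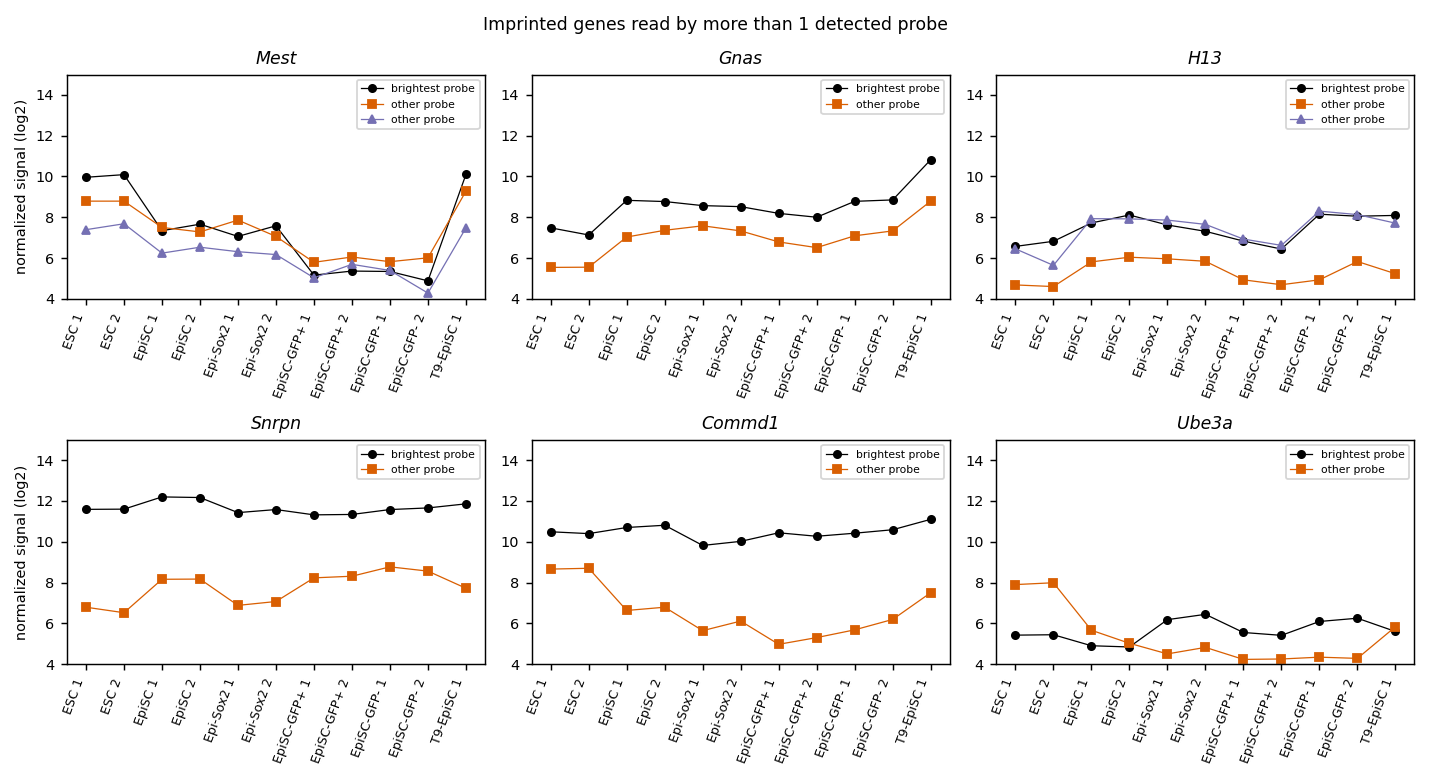
Normalized signal (log2) on each of the 11 arrays for 6 imprinted genes read by more than 1 detected probe, with the brightest probe in black. The 3 Mest probes and the 2 Gnas probes run alike over the arrays, while the 2 Ube3a probes cross between EpiSC and Epi-Sox2.

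Of the 23 genes, 8 were read by more than 1 detected probe. With all of them required to be called the same way, 6 genes passed between the E3 fractions (1 higher and 5 lower). For E3 against ESC 14 passed, 7 higher and 7 lower. The 3 probes of Mest gave -2.53, -1.40 and -1.15 from ESC to EpiSC and -2.32, -1.47 and -1.29 from EpiSC to E3, and each of these passed over all probes (highest adjusted p = 0.0109). Both Gnas probes (1.49 and 1.65) and all 3 H13 probes (1.22, 1.29 and 1.88) were higher in EpiSC than in ESC. Snrpn probes rose together from ESC to EpiSC (0.59 and 1.51) and fell together from EpiSC to Epi-Sox2 (-0.68 and -1.19). Commd1 fell with both probes from EpiSC to Epi-Sox2 (-0.83 and -0.84), but its dimmer probe was lower in EpiSC than in ESC by a log2 difference of -1.97 where the brighter one gave 0.31. The probes can read different transcripts of a gene, and the table of signals does not name these.

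T9-EpiSC is a single array, so its differences have no replicate check and no test. It held the highest level of any array for 10 of the 23 genes (13.4% of all genes) and the lowest for 2 (13.4%). Against the mean of the 4 other EpiSC groups 6 genes were 1 log2 unit or more higher, where 8.38% of all genes were, and 1 was as much lower, where 7.26% were. The 6 were the paternally expressed Mest (3.80), Igf2 (3.09) and Ndn (2.27) and the maternally expressed Gnas (2.26), Cdkn1c (1.39) and Grb10 (1.16). For Mest the size depends on the probe, and 3.80 is that of the probe used. Its other probes read 9.28 on T9-EpiSC against 5.79 to 7.86 on the other EpiSC arrays, and 7.48 against 4.28 to 6.53. Phlda2 was lower (-2.77), and Igf2r was the other gene below all arrays (6.57, a difference of -0.82). The median difference was 0.56 over the maternally and 0.70 over the paternally expressed genes, against -0.06 over all genes.

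**Figure D5:**
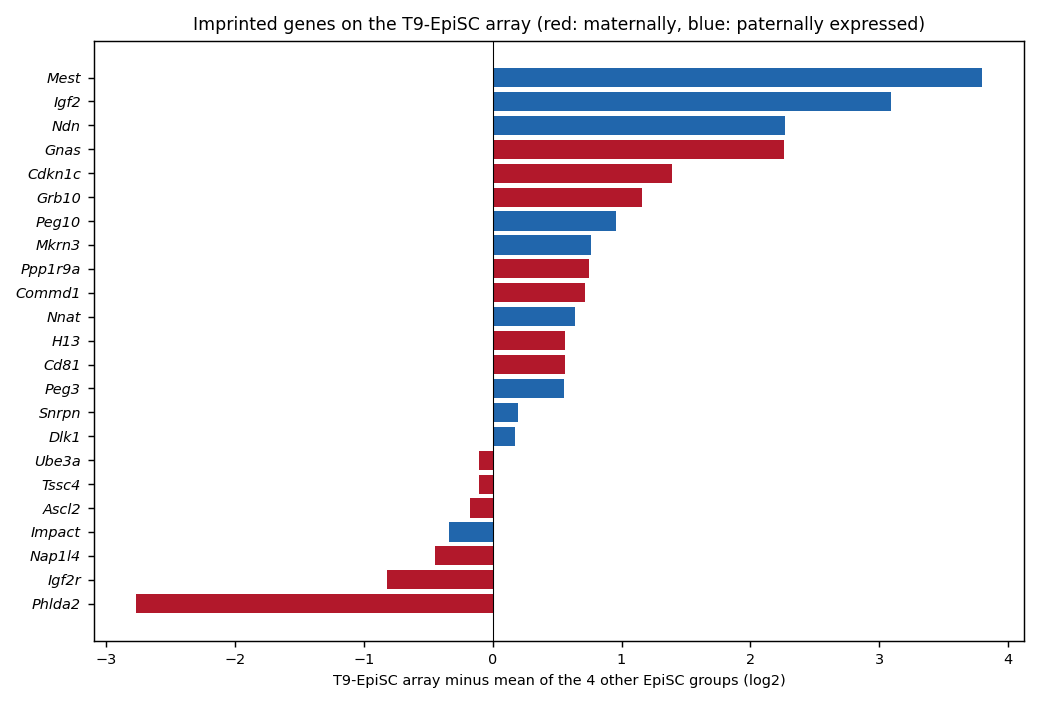
Level of each of the 23 imprinted genes on the single T9-EpiSC array minus the mean of the other 4 EpiSC groups (log2), red for maternally and blue for paternally expressed genes, in order of the difference. Bars run from the Mest probe used at 3.80 down to Phlda2 at -2.77.

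T9 cells were grown on feeders and harvested without them. Of the 5 tested fibroblast markers 3 were detected on the T9-EpiSC array (Dcn 6.40, Thy1 5.98 and Col1a1 5.55), while Lox (4.50) and Col3a1 (4.39) were not. Their summed signal was 238 on this array, between 183 and 296 on the other EpiSC arrays and 441 and 476 in ESC. The markers in this sum went different ways. Thy1 was lowest on T9-EpiSC and read 6.61 to 7.69 elsewhere. Dcn was detected on T9-EpiSC and the ESC arrays (6.25 and 5.79) alone. Col1a1 was at the ESC level (5.60 and 5.51) on T9-EpiSC and was also detected on 1 Epi-Sox2 array (5.44). Of the 5 tested endoderm markers 3 were detected on T9-EpiSC, among them Foxa2 (6.72) and Sox17 (5.85), with a summed signal of 288 against 123 to 219 elsewhere. Amn, the visceral endoderm marker detected on most other arrays, was not detected on T9-EpiSC and had its lowest level there (4.39). Of 4 tested trophoblast markers 3 were detected on T9-EpiSC, among them Cdx2 (5.62, against 5.44 and 5.58 in ESC). Their summed signal was 324, against 244 to 986 on the other EpiSC arrays. For 6 general pluripotency markers the sum was 8562 against 9343 to 15212, with Utf1 lowest (8.19) and Nanog (10.24) above all other EpiSC arrays. What fibroblast, endoderm or trophoblast cells add to the T9-EpiSC levels was not tested. Line, cell state, feeders, medium and Fgf2 withdrawal cannot be told apart in 1 array.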

How the data were processed

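Groups and replicate numbers came from the sample titles. The deposited scanner table holds mean bead intensity per probe and array, which the design text calls non-normalized, and a detection p-value per the file headers, from BeadStudio 3.2 per the submitters' processing notes. The deposited series matrix holds the authors' log2 values, for which the notes name lumi and RMA; its columns share a median of 2.64 and rank the probes as the scanner table does (Spearman correlation of 1), and its background treatment and centring stay unknown. It served as an alternative.

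Intensities were corrected with normexp (offset 16, from the detection p-values), taken to log2 and quantile-normalized with limma 3.58.1 in R 4.3.3. Probes detected on 2 or more arrays (13048) were kept, named through the platform annotation and reduced to the brightest per gene (8873 genes and 747 unnamed probes; 23978 probes had 1 symbol, 1719 none and 0 several). Differences were fitted over all 11 arrays with 1 mean per group and empirical Bayes moderation (5 residual, 4.64 prior degrees of freedom), with Benjamini-Hochberg adjustment over 9620 at 0.05. The fitting code was tested on simulated data. Array values are printed for genes whose group means spanned 2 log2 units, and genes called at 1 unit or more are named with values in each comparison. Same-numbered arrays did not deviate together (correlations -0.02 to 0.09 over 10 pairs of groups), so replicate number was no block. The members and lists were chosen with earlier results of these data known. Alternatives were other offsets, scalings, filters, probes, variance models, the authors' values and leaving out each array.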

Additional observations from a re-analysis of the deposited data

How the results depend on the processing

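Of 67 called differences, 28 passed in the same direction under every alternative and with every array left out. In 1474 repeats of single calls 1362 passed the same way, 98 lost the threshold and 14 changed sign. Reading every detected probe gave the opposite sign for Ube3a (-0.68 from EpiSC to Epi-Sox2, -1.06 from EpiSC to E3, -3.67 from ESC to E3, each against arrays without a detected signal of that probe and so of no firm size) and Snrpn (0.30 from EpiSC to E3). Cyclic loess turned Nap1l4 from ESC to EpiSC (-0.02) and Igf2r from ESC to E3 (-0.02). Median scaling turned Nap1l4 from ESC to EpiSC (-0.14) and, from ESC to E3, Igf2r (-0.57), Tssc4 (-0.39), Ube3a (-0.32), H13 (-0.26), Ppp1r9a (-0.19), Nap1l4 (-0.08) and Dlk1 (-0.03). The causes were not tested. Of the counts, that of EpiSC-GFP+ against EpiSC-GFP- moved from 8 to 14 (offset 50), 13 (no background correction), 13 (intensity trend in the variance) and 4 (median scaling). Leaving out 1 array gave 13 to 16 calls for EpiSC against ESC, 5 to 10 for Epi-Sox2 (5 without Epi-Sox2 replicate 1), 6 to 12 for the E3 fractions against each other, 10 to 17 for E3 against EpiSC (10 without EpiSC replicate 1), 14 to 18 for E3 against ESC and 21 to 23 for the F test. Where 1 array of a group was left, its spread was taken to be that of the other groups. With the replicate number as a block the counts were, in the same order, 16, 10, 8, 16, 17 and 22, and the numbers are shared by name only. A slide block could not be run, since the tables used here name no slide. The T9-EpiSC alternatives were chosen after seeing the data and gave 6 to 9 genes higher by 1 unit and 9 to 12 above all other arrays. The 12 came without the detection filter, where 34 listed genes were counted in place of 23. Signal over background limits the genes detected on few arrays, Ascl2 (2 arrays) and Peg10 (6 arrays).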

Other observations

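Further imprinted genes outside the list were counted from a second list of 41, of which 16 were tested. From ESC to EpiSC 13 of the 16 passed, 5 higher and 8 lower, against 66.6% of all genes (40.4% higher and 26.2% lower). Slc38a4, an amino acid transporter gene that is paternally expressed, read 8.79 and 8.83 in ESC and was not detected on any other array of the study. Sfmbt2 read 5.75 and 6.05 in ESC and was likewise detected on no other array. Both were tested because of the ESC arrays, and their calls among the 8 lower follow from the detection rule. The same holds for Dcn (-1.50), which was detected on the ESC arrays and T9-EpiSC alone. Dcn is also counted in the fibroblast markers above. Gab1, a docking protein of receptor tyrosine kinases with imprinted expression in the placenta, read 11.25 and 11.35 in ESC, 7.93 and 8.24 in EpiSC and 10.19 and 10.28 in Epi-Sox2, and 10.54 and 10.44 in EpiSC-GFP+ against 8.57 and 8.28 in EpiSC-GFP-. Gab1 thus fell by 3.22 log2 units from ESC to EpiSC (limma adjusted p = 1.21e-07) and was higher in Epi-Sox2 than in EpiSC (2.15, adjusted p = 2.65e-05) and in EpiSC-GFP+ than in EpiSC-GFP- (2.07, adjusted p = 1.96e-05). Between the E3 fractions 9 of the 16 passed, 7 higher and 2 lower in GFP-positive cells. Of all genes 26.7% passed (13.4% higher and 13.2% lower). The 7 include Slc38a4, which was not detected on any E3 array, so its call compares background signals. Cobl (1.86) and Ddc (1.37), neighbours of Grb10, were among the others higher. From EpiSC to the E3 fractions 8 of the 16 passed, 6 higher and 2 lower, against 40.3% of all genes (18.9% higher and 21.3% lower). The split thus differed from that of the 23 genes above, of which 5 were higher and 12 lower in E3.

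Of 20 genes that maintain imprints or DNA methylation 11 were tested, and 8 passed from ESC to EpiSC, 1 higher and 7 lower. Of all genes 66.6% passed (40.4% higher and 26.2% lower). Dppa3 and Zfp42, among the 7, are also counted in the naive markers above. Dnmt3l, the cofactor of the de novo methyltransferases, read 12.82 and 12.72 in ESC, 6.27 and 6.36 in EpiSC, 9.54 and 9.74 in Epi-Sox2, 11.89 and 11.93 in EpiSC-GFP+, 8.01 and 8.13 in EpiSC-GFP- and 7.01 in T9-EpiSC. It was 3.33 log2 units higher in Epi-Sox2 than in EpiSC (limma adjusted p = 4.33e-07) and 3.84 higher in GFP-positive than GFP-negative cells (adjusted p = 1.12e-07). Dppa3, which guards maternal methylation in the zygote, ran the same way, with a difference of -3.84 from ESC to EpiSC and rises of 2.07 in Epi-Sox2 and 2.25 in EpiSC-GFP+. Dnmt3b, a de novo methyltransferase, was the 1 gene of this list that was higher in EpiSC (1.12, adjusted p = 1.95e-05), and the maintenance factors Uhrf1 (-1.31) and Dnmt1 (-1.05) were lower.

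Over the 11 arrays, the 3 imprinted genes of the list whose levels followed Peg3 most closely were Mest (Pearson r = 0.77), Peg10 (0.74) and Ndn (0.74), all paternally expressed. The arrays fall into lines and fractions, so these values only describe the order of a few groups.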
